A study of Mus musculus with 12 samples.

Results

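The genes described here are 33 genes of cholesterol and fatty acid metabolism, taken by symbol from a hand-made list of 16 mevalonate and sterol synthesis genes, 4 regulators of the SREBP pathway, 10 genes of fatty acid synthesis, elongation and desaturation, and 3 genes of the LXR pathway and cholesterol efflux. All 33 were among the 18180 genes of the deposited expression table. The levels come from bulk RNA-seq of EGFR+ cells flow sorted from 3 end-stage mouse glioblastomas (GBMs), T3, T4 and T5. Each tumor was sorted into 4 populations, PDGFRA+, PDGFRA-, GAL1+ and GAL1-, which gave 12 libraries and 3 per population. The sample labels write PDGFR and Gal1, and GAL1 is Galectin-1. By the study's methods the EGFR stain was paired with a stain for PDGFRA or for Galectin-1. The PDGFRA and GAL1 sorts were thus separate splits of EGFR+ cells, and a population of one sort can overlap those of the other. The tumors of every population shared the same model: mice of mixed background (C57Bl/6J, 129S4, FVBN/J and Balb/cJ in the labels, with SJL added in the study's methods) carried a conditional human EGFR transgene, Cdkn2a loss and a conditional luciferase reporter, and tumors were begun in adults by intracranial injection of a Cre lentivirus. The conditional alleles recombine only in cells that Cre reaches. Neither a drug or radiation treatment nor an age is given in the labels of these mice, and there was no tumor-free group among the 12 libraries.

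Cells make cholesterol from acetyl-CoA through the mevalonate pathway, and they make and modify fatty acids from the same precursor. When sterols in the endoplasmic reticulum are low, SCAP carries the SREBP transcription factors to the Golgi for cleavage, and the released factors switch on both sets of enzymes. INSIG1 holds SCAP back when sterols are plentiful. Oxysterols, in contrast, activate the LXR receptors, which switch on the exporters ABCA1 and ABCG1. In brain, cholesterol is made locally because lipoproteins do not cross the blood-brain barrier, and myelinating cells and their progenitors are strong producers.

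Levels are the authors' log2 CPM, reads scaled to a common library total on the log2 scale, which carry no correction for gene length, so levels are compared between libraries and not between genes. Recovered library sizes ran from 9851175 to 24117541 reads. They were largest in GAL1- libraries, at 21728280 to 24117541, against 13788453 to 17486645 in GAL1+ libraries. In PDGFRA+ libraries they were 10768492 to 18522549 and in PDGFRA- libraries 9851175 to 16516049. The floor taken for detection, 3 reads, lay between a log2 CPM of −2.99 and −1.44, a limit that covers counting error only. The lowest value of any of the 33 genes was 0.03, for *Nr1h3* in the GAL1- library of T3, with 27.9 recovered reads. A difference between populations is given as a log2 fold change with its standard error (SE) from limma's moderated test with the tumor as a block, and "called" means that the p-value, adjusted by Benjamini-Hochberg across the 18180 genes, was under 0.05. *Scd1* and *Scd2* are paralogs of similar sequence, and reads that matched several places were counted as fractions. Some reads of one gene may therefore be counted for the other.

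The sorted populations differed in markers of other cells, and these values stand beside the results that follow. All 12 pan-leukocyte genes were higher in GAL1+ than in GAL1- libraries, with a median log2 fold change of 4.49, and their summed level was 3254 to 4507 CPM in GAL1+, 774 to 3480 in PDGFRA-, 725 to 1709 in PDGFRA+ and 88.5 to 237 in GAL1- libraries. The summed level of 10 macrophage genes was 5114 to 6791 CPM in GAL1+ and 61.2 to 182 in GAL1- libraries, and all 9 microglia genes were higher in GAL1+ libraries by a median of 4.71. All 9 endothelial genes (median 2.77) and all 5 pericyte genes (median 2.70) were also called higher in GAL1+ than in GAL1- libraries. The 8 oligodendrocyte progenitor genes went the other way, with a median of −2.89 and all 8 lower in GAL1+ libraries, where they summed to 272 to 837 CPM, against 2285 to 2761 in GAL1- libraries. Mouse *Egfr* was lower by 2.10 on the log2 scale in GAL1+ libraries (SE 0.32, limma adjusted p = 0.000461). The human transgene has no entry of its own in the table. Reads were aligned to the mouse genome, and whether transgene reads were counted under *Egfr* was not tested. The study describes the sorted cells as CD45-. *Ptprc*, which encodes CD45, had a log2 CPM of 8.21, 8.74 and 9.0 in the GAL1+ and of 3.7, 5.18 and 4.94 in the GAL1- libraries of T3, T4 and T5, and was above the floor in all 12 libraries. Among the other lists, mature oligodendrocyte genes had a median of −1.58 (9 of 11 lower, 1 higher), astrocyte genes −0.98 (4 of 8 lower, 1 higher), neuronal genes −1.45 (3 of 7 lower) and cycling genes −0.33 (4 of 9 lower). In bulk RNA, fewer cells of a type and less RNA per cell cannot be told apart. The PDGFRA- library of T5 stood near the GAL1+ libraries, with pan-leukocyte genes at 3480 CPM and progenitor genes at 901 CPM.

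Promoter sequence is shown for a few of the genes, and its part in the differences between populations was not tested. RefSeq promoter windows (GRCm38.p6, from 250 bases before to 50 bases after a gene's start) matched 26 of the 33 genes; *Fdps*, *Fdft1*, *Sqle*, *Scd1*, *Scd2*, *Fads1* and *Abcg1* had no window. The CCAAT box, whose factor NF-Y is a known partner of SREBP, was searched as CCAAT on both strands (ATTGG on the reverse strand). It was in 20 of the 26 genes and in 13 of 13 sterol synthesis genes with a window, against 41.1% of 27025 genes. A gene with several windows was counted when any of them held the match, and in *Dhcr7*, *Pmvk* and *Srebf1* not every window did. In *Acly* the match lay after the start. *Pmvk*, *Srebf1*, *Acly* and *Elovl5*, which were not called in GAL1+ over GAL1- libraries, also had it. *Scap*, *Acaca*, *Elovl6* and *Fads2*, which were called lower there, had none in their windows. The GC box GGGCGG was in 20 of 26, against 38.2%, and the E box CACGTG in 7 of 26, against 8.09%. The sterol regulatory element searched, TCACNCCAC, was in *Hmgcs1* alone, against 1.44% of genes. The LXR direct repeat, searched as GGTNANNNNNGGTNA, was in *Srebf1*, *Fasn* and *Abca1*, against 0.818% of genes. A match is a description of letters in the window and not evidence of binding. The bases just before the start of 6 genes follow, 5′ to 3′ on the gene's own strand, with the CCAAT box (and in *Hmgcs1* also the sterol regulatory element, in *Fasn* and *Abca1* the direct repeat) in capitals. They lie at chr13:119690201-119690350 (*Hmgcs1*, plus strand), chr13:8885456-8885605 (*Idi1*, plus), chr10:76531455-76531604 (*Lss*, plus), chr15:82147119-82147268 (*Srebf2*, plus), chr11:120824548-120824777 (*Fasn*, minus) and chr4:53159896-53160045 (*Abca1*, minus).
Hmgcs1: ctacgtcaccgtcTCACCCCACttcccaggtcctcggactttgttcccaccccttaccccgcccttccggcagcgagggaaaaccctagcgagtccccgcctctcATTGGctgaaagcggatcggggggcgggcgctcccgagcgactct
Idi1: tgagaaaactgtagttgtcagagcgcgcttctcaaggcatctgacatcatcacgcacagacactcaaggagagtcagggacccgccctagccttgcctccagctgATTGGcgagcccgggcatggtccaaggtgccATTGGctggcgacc
Lss: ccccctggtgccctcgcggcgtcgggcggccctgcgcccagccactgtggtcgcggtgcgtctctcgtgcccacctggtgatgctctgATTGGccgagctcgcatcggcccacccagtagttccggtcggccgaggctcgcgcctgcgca
Srebf2: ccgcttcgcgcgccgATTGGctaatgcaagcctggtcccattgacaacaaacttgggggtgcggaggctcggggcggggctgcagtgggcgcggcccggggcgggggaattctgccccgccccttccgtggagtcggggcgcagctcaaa
Fasn: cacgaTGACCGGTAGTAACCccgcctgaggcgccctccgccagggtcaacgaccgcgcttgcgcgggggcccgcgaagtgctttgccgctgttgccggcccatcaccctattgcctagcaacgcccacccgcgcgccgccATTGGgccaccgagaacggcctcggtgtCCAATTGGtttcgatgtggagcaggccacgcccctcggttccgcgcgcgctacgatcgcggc
Abca1: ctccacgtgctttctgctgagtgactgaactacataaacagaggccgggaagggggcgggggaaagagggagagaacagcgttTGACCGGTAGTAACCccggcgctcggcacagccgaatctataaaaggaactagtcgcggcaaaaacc
In *Fasn* the forward and reverse CCAAT matches nearest the start share bases. *Fasn* and *Abca1* hold the same 15 letters of the direct repeat, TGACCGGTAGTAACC, at positions −225 to −211 and −67 to −53 from the start. *Fasn* was called lower and *Abca1* higher in GAL1+ than in GAL1- libraries.

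The first comparison, GAL1+ with GAL1- cells, asks how EGFR+ cells sorted for Galectin-1 differ from those sorted as negative for it. The study uses Galectin-1 to mark tumor cells it calls differentiated-like, but the GAL1+ libraries carried the leukocyte, macrophage and lower *Egfr* levels given above, so they are named here by their sort. Sterol synthesis genes, most fatty acid genes and 3 of the 4 SREBP regulators were lower in GAL1+ libraries, and the 3 LXR and efflux genes were higher. Of the 33 genes, 26 were called lower and 3 higher, where 29.3% of all genes tested were called lower and 28.9% higher. The same 26 genes had no overlap between the 3 GAL1+ and the 3 GAL1- libraries in the lower direction (30.5% of all genes), and 4 had none in the higher direction, *Acly* being the one not called (30.1% of all genes). The median log2 fold change was −1.66 over the sterol genes, −0.86 over the SREBP regulators, −1.25 over the fatty acid genes and 2.71 over the LXR and efflux genes, against −0.03 over all genes.

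**Figure D1:**
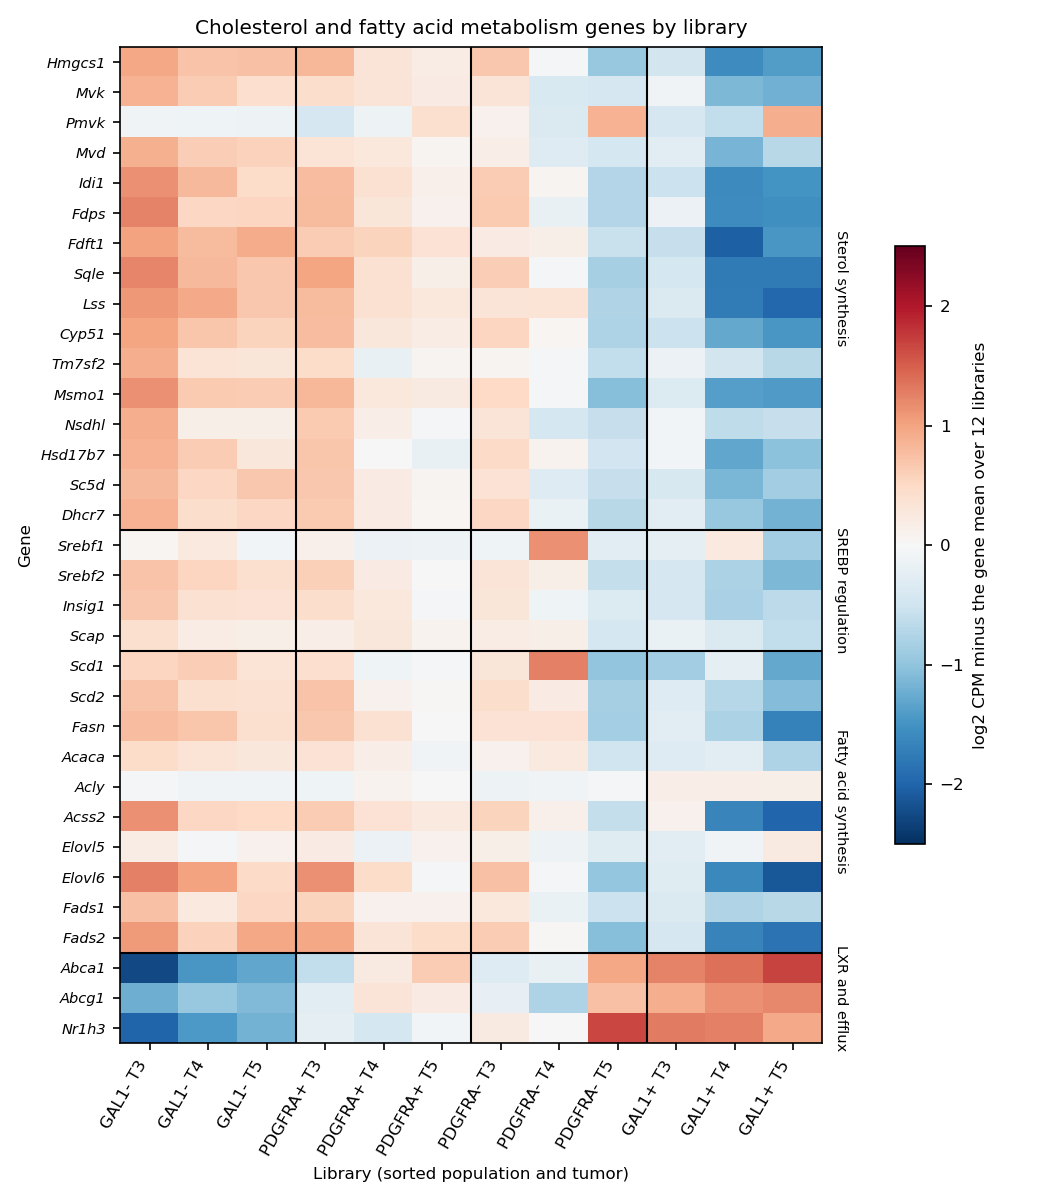
Level of each of the 33 genes (rows, grouped by role) in the 12 libraries (columns, by sorted population and tumor), as log2 CPM minus the gene's mean over the libraries. Nearly all sterol genes were highest in the GAL1- library of T3 and lowest in the GAL1+ library of T4 or T5, while *Abca1*, *Abcg1* and *Nr1h3* were lowest in the GAL1- library of T3, and *Srebf1* and *Scd1* peaked in the PDGFRA- library of T4.

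Among the regulators, *Srebf2* encodes SREBP-2, the SREBP that mainly drives sterol synthesis genes. Its log2 CPM was 8.03, 7.86 and 7.73 in GAL1- (T3, T4 and T5 in this order here and below), 7.92, 7.52 and 7.34 in PDGFRA+, 7.65, 7.48 and 6.74 in PDGFRA-, and 6.91, 6.53 and 6.20 in GAL1+ libraries. Every GAL1+ library lay below the GAL1- and PDGFRA+ libraries, which overlapped each other. The log2 fold change of GAL1+ over GAL1- was −1.33 (SE 0.14, adjusted p = 5.97e-05), a 2.51-fold lower level. *Insig1*, the sterol-sensitive anchor of SCAP and itself a known SREBP target, was at 6.43, 6.15 and 6.12 in GAL1-, 6.19, 6.02 and 5.71 in PDGFRA+, 6.06, 5.65 and 5.43 in PDGFRA-, and 5.34, 4.96 and 5.11 in GAL1+ libraries. All 3 GAL1+ libraries were below the other 9, and the log2 fold change was −1.10 (SE 0.12, adjusted p = 7.43e-05).

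*Scap*, the escort protein, varied least of the regulators, over a range of 1.01 on the log2 scale. It was at 6.22, 6.01 and 5.98 in GAL1-, 6.00, 6.11 and 5.92 in PDGFRA+, 6.01, 5.97 and 5.40 in PDGFRA-, and 5.66, 5.47 and 5.21 in GAL1+ libraries. The GAL1+ libraries were below all GAL1- and PDGFRA+ libraries but overlapped the PDGFRA- libraries, and the log2 fold change over GAL1- was −0.62 (SE 0.13, adjusted p = 0.00256).

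*Srebf1*, whose SREBP-1 products act mainly on fatty acid genes, did not follow *Srebf2*. Its log2 CPM was 6.89, 7.08 and 6.77 in GAL1-, 6.97, 6.69 and 6.71 in PDGFRA+, 6.73, 7.98 and 6.55 in PDGFRA-, and 6.59, 7.07 and 5.96 in GAL1+ libraries. The PDGFRA- library of T4 stood above the other 11, and the GAL1+ library of T4 was level with the GAL1- library of T4. The log2 fold change of GAL1+ over GAL1- was −0.37 (SE 0.27, adjusted p = 0.260), and it was −0.55 with adjusted p = 0.0342 when the T4 libraries were left out. The table counts *Srebf1* as 1 gene, so its promoters and isoforms were not separated.

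In the sterol pathway, 15 of 16 genes were called lower in GAL1+ than in GAL1- libraries, and each of the 15 was lower in 3 of 3 tumors. *Hmgcs1*, *Mvk*, *Mvd*, *Idi1* and *Fdps* act from HMG-CoA formation to farnesyl pyrophosphate, and their log2 fold changes were −1.94, −1.45, −1.40, −2.02 and −1.86. The first sterol-committed steps, *Fdft1* (squalene synthase), *Sqle* (squalene epoxidase) and *Lss* (lanosterol synthase), had −2.26, −2.22 and −2.26, the largest differences of the pathway. Of the enzymes that turn lanosterol into cholesterol, *Cyp51*, *Msmo1*, *Sc5d*, *Dhcr7* and *Hsd17b7* had −1.84, −1.86, −1.47, −1.40 and −1.39, and *Tm7sf2* and *Nsdhl* the smaller differences of −0.95 and −0.83. Adjusted p-values of the 15 genes ran from 4.60e-05 for *Sqle* to 0.00178 for *Tm7sf2*.

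*Fdft1* had a log2 CPM of 7.19, 6.98 and 7.11 in GAL1-, 6.82, 6.74 and 6.54 in PDGFRA+, 6.40, 6.33 and 5.63 in PDGFRA-, and 5.62, 4.15 and 4.73 in GAL1+ libraries. The GAL1-, PDGFRA+ and PDGFRA- libraries did not overlap one another, and the PDGFRA- library of T5 was level with the GAL1+ library of T3. The fold was 4.79 lower in GAL1+ than in GAL1- libraries (log2 −2.26, SE 0.27, adjusted p = 0.000112).

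*Lss* had a log2 CPM of 6.66, 6.53 and 6.25 in GAL1-, 6.36, 5.94 and 5.84 in PDGFRA+, 5.89, 5.92 and 4.82 in PDGFRA-, and 5.21, 3.84 and 3.61 in GAL1+ libraries. The GAL1+ libraries of T4 and T5 were the lowest of the 12, and that of T3 was above the PDGFRA- library of T5. *Lss* was 4.80-fold lower in GAL1+ than in GAL1- libraries (log2 −2.26, SE 0.27, adjusted p = 0.000118).

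*Msmo1*, the sterol C4 methyl oxidase, had a log2 CPM of 7.19, 6.71 and 6.69 in GAL1-, 6.88, 6.31 and 6.28 in PDGFRA+, 6.56, 6.00 and 4.98 in PDGFRA-, and 5.71, 4.68 and 4.63 in GAL1+ libraries. Its PDGFRA- library of T5 fell within the range of the GAL1+ libraries. The log2 fold change of GAL1+ over GAL1- was −1.86 (SE 0.21, adjusted p = 0.000102).

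*Pmvk*, phosphomevalonate kinase, was the exception of the pathway. Its log2 fold change was 0.06 (SE 0.27, adjusted p = 0.865), with differences of −0.35, −0.51 and 1.04 in T3, T4 and T5. The 3 GAL1- libraries were close, from 5.48 to 5.54, whereas the GAL1+ libraries ran from 5.0 in T4 to 6.52 in T5. The order of the population means was GAL1- above PDGFRA+, PDGFRA- and GAL1+ in 15 of 16 sterol genes, all but *Pmvk*.

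The size of the difference varied by tumor. The median log2 fold change over the 16 sterol genes was −1.30, −1.95 and −1.82 for T3, T4 and T5. The GAL1+ library of T3 kept higher sterol levels than those of T4 and T5, at a median of −0.35 relative to each gene's mean over the 12 libraries, against −1.29 and −1.30. In that library the progenitor genes summed to 837 CPM, against 629 and 272 in T4 and T5, and the pan-leukocyte genes to 3254 CPM, against 3857 and 4507. The part of cell composition in this order was not tested.

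Among the fatty acid genes, 8 of 10 were called lower in GAL1+ than in GAL1- libraries. *Acss2*, which makes acetyl-CoA from acetate, had a log2 fold change of −1.89, *Acaca*, the acetyl-CoA carboxylase that commits carbon to synthesis, −0.82, and *Fasn*, fatty acid synthase, −1.54. The desaturase genes *Fads2*, *Fads1*, *Scd1* and *Scd2* had −2.19, −1.10, −1.29 and −1.20, with the *Scd1* value (SE 0.36, adjusted p = 0.0119) lost when T3 or the GAL1- library of T5 was left out. *Elovl6*, which extends palmitate to stearate, showed the largest decrease of the 33 genes.

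*Elovl6* had a log2 CPM of 6.70, 6.44 and 5.90 in GAL1-, 6.56, 5.89 and 5.41 in PDGFRA+, 6.16, 5.39 and 4.47 in PDGFRA-, and 5.13, 3.82 and 3.30 in GAL1+ libraries. Within each population T3 was highest and T5 lowest, and within each tumor the GAL1+ library was lowest. Its level was 4.81-fold lower in GAL1+ than in GAL1- libraries (log2 −2.26, SE 0.20, adjusted p = 4.53e-05).

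*Fads2*, the delta-6 desaturase of polyunsaturated fatty acid synthesis, had a log2 CPM of 7.51, 7.01 and 7.42 in GAL1-, 7.40, 6.76 and 6.91 in PDGFRA+, 7.09, 6.47 and 5.38 in PDGFRA-, and 6.02, 4.77 and 4.59 in GAL1+ libraries. The GAL1- and PDGFRA+ libraries overlapped, and both were above all GAL1+ libraries. The log2 fold change of GAL1+ over GAL1- was −2.19 (SE 0.29, adjusted p = 0.000215).

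*Acly* and *Elovl5* did not pass the test, although *Acly* passed as higher with voom weights, a stricter low-value filter or median centring, and without the PDGFRA- library of T4 or of T5. *Acly*, ATP citrate lyase, which makes cytosolic acetyl-CoA from citrate, was the steadiest of the 33 genes, over a range of 0.30 on the log2 scale. Its log2 CPM was 7.61, 7.56 and 7.56 in GAL1- and 7.81, 7.81 and 7.79 in GAL1+ libraries, a log2 fold change of 0.23 (SE 0.09, adjusted p = 0.0551) with the 3 GAL1+ libraries above the 3 GAL1- libraries. *Elovl5*, an elongase of polyunsaturated fatty acids, had −0.13 (SE 0.16, adjusted p = 0.515), with differences of −0.46, −0.04 and 0.12 in T3, T4 and T5.

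**Figure D2:**
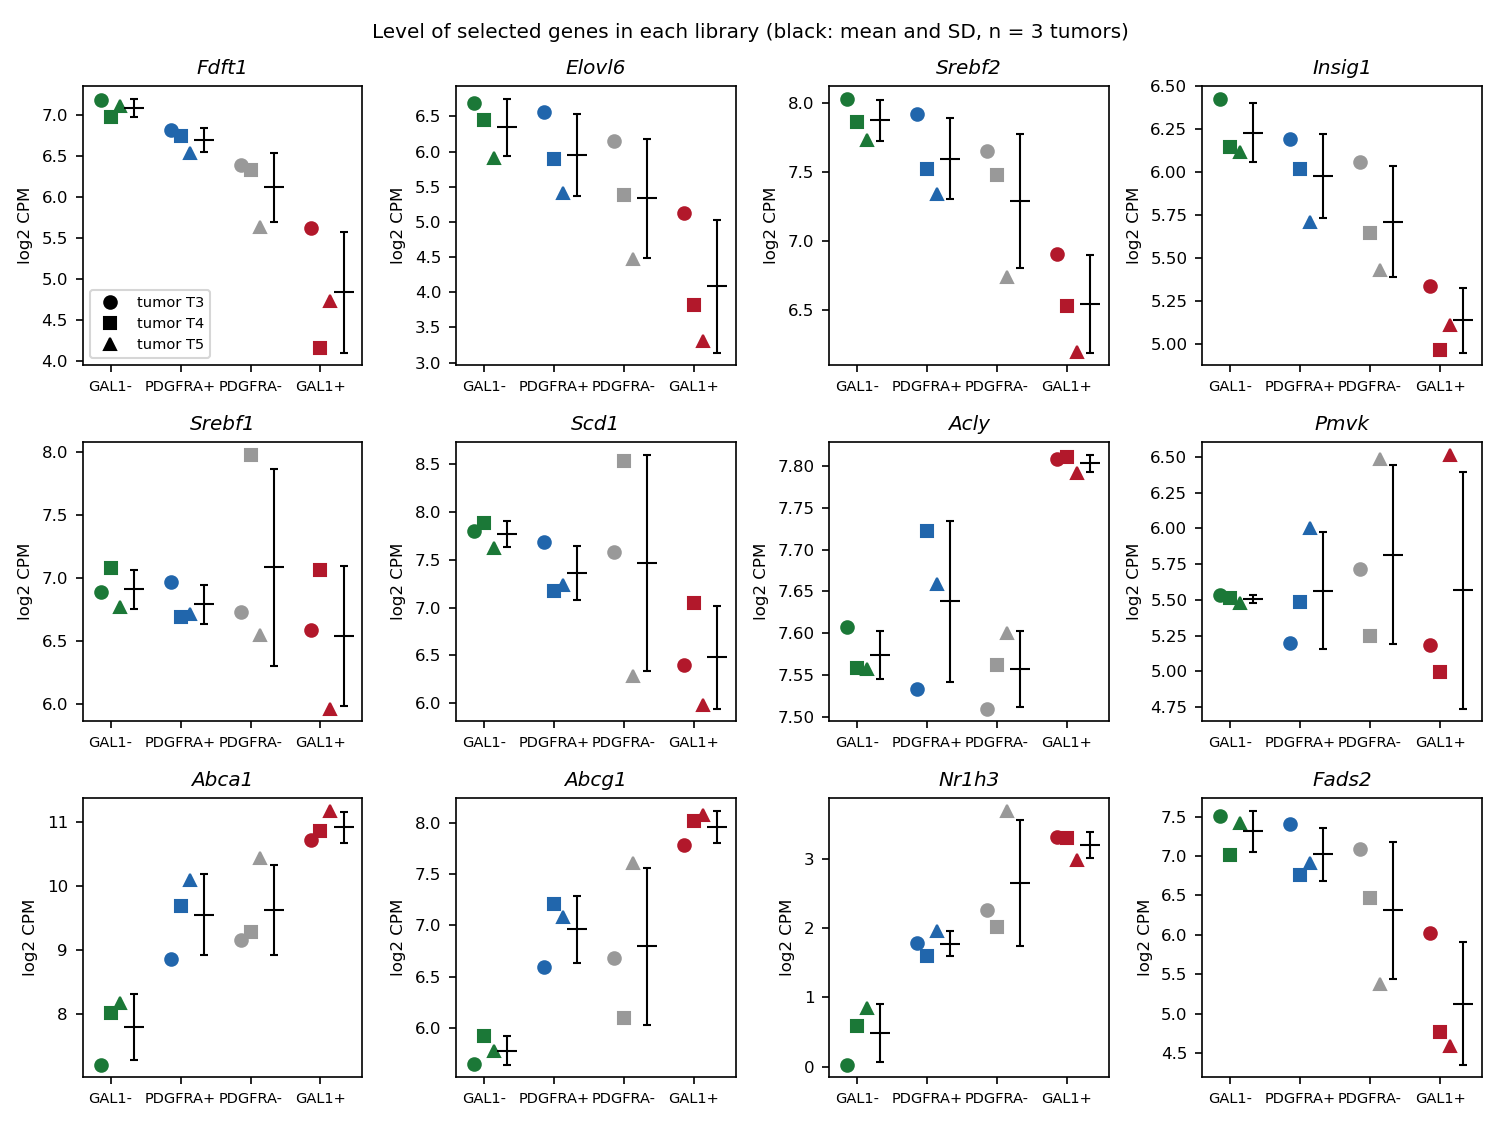
log2 CPM of 12 of the genes in each library, by sorted population (colors) and tumor (symbols), with the mean and SD over 3 tumors in black; each panel has its own axis, which does not start at 0. *Fdft1*, *Elovl6*, *Srebf2* and *Fads2* stepped down from GAL1- to GAL1+ libraries, *Abca1* and *Abcg1* were highest in the 3 GAL1+ libraries, *Nr1h3* was highest in the PDGFRA- library of T5, and *Acly* moved over a range of only 0.30.

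The LXR and efflux genes were all called higher in GAL1+ libraries, and their population means ran from GAL1+ down to GAL1-, with PDGFRA- above PDGFRA+ in *Abca1* and *Nr1h3* and below it in *Abcg1*. *Abca1*, which loads cholesterol onto lipid-poor apolipoproteins, had a log2 CPM of 7.22, 8.02 and 8.18 in GAL1-, 8.86, 9.69 and 10.10 in PDGFRA+, 9.15, 9.29 and 10.44 in PDGFRA-, and 10.71, 10.85 and 11.17 in GAL1+ libraries. The GAL1- libraries were below all others and the GAL1+ libraries above all others. *Abca1* was 8.60-fold higher in GAL1+ than in GAL1- libraries (log2 3.10, SE 0.21, adjusted p = 3.94e-05), the largest difference among the 33 genes.

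*Abcg1*, which exports sterol to mature lipoprotein particles, had a log2 CPM of 5.64, 5.92 and 5.77 in GAL1-, 6.59, 7.20 and 7.08 in PDGFRA+, 6.68, 6.09 and 7.61 in PDGFRA-, and 7.78, 8.02 and 8.08 in GAL1+ libraries. The 3 GAL1- libraries were the lowest of the 12 and the 3 GAL1+ libraries the highest. The log2 fold change was 2.18 (SE 0.28, adjusted p = 0.000168).

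*Nr1h3*, which encodes LXR alpha, had a log2 CPM of 0.03, 0.58 and 0.85 in GAL1-, 1.78, 1.59 and 1.96 in PDGFRA+, 2.26, 2.01 and 3.69 in PDGFRA-, and 3.32, 3.30 and 2.98 in GAL1+ libraries. The PDGFRA- library of T5 held the highest value, above the GAL1+ libraries. *Nr1h3* rested on 27.9 to 44.1 reads in GAL1- and 97.2 to 169 reads in GAL1+ libraries, and its log2 fold change was 2.71 (SE 0.36, adjusted p = 0.000190). *Nr1h3*, *Abca1* and *Abcg1* are also well expressed by macrophages, whose marker genes had a median log2 fold change of 5.97 in this comparison, and the part of macrophage RNA in these 3 results was not tested.

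The second comparison, PDGFRA+ with GAL1+ cells, sets the cells sorted by each of the study's markers side by side, and it shares the GAL1+ libraries with the first. Of the 33 genes, 25 were called higher in PDGFRA+ libraries and 3 lower, where 20.9% of all genes were called higher and 17% lower. In 24 genes the PDGFRA+ libraries did not overlap the GAL1+ libraries and were higher (23.5% of all genes), and in 4 they were lower (22.5% of all genes). By role, 15 of 16 sterol genes (median log2 fold change 1.31), 3 of 4 SREBP regulators (median 0.70) and 7 of 10 fatty acid genes (median 0.94) were higher, and all 3 LXR and efflux genes were lower (median −1.36). Over all genes the median was 0.01. With each library centred on its median gene, 3038 genes were called higher and 4408 lower, in place of 3803 and 3097. That centring shifted the median of all genes to −0.15, and the 33 genes then had 24 called higher and 4 lower. All 12 pan-leukocyte genes were called lower in PDGFRA+ libraries (median −1.58), and the progenitor genes were higher by a median of 2.49 (all 8 called).

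The largest increases in PDGFRA+ libraries were those of *Fads2* (log2 fold change 1.90, SE 0.29, adjusted p = 0.00207), *Elovl6* (1.87, SE 0.20, adjusted p = 0.00137) and *Fdft1* (1.87, SE 0.27, adjusted p = 0.00173). *Lss* and *Sqle* followed at 1.83 each, *Idi1* at 1.63, *Hmgcs1* at 1.59 and *Acss2* at 1.58. The lower end of the called sterol genes was *Tm7sf2* at 0.55 (adjusted p = 0.0411), with libraries that overlapped. *Srebf2*, *Insig1* and *Scap* were higher by 1.05, 0.84 and 0.56, and without the tumor block *Scap* did not pass (adjusted p = 0.0572). *Srebf1* (0.25, adjusted p = 0.485), *Pmvk* (0.00), *Acly* (−0.17, adjusted p = 0.181), *Elovl5* (0.10) and *Scd1* (0.88, SE 0.36, adjusted p = 0.0780) did not pass. *Srebf1* differed by 0.38 in T3, −0.38 in T4 and 0.75 in T5.

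*Nr1h3* was lower in PDGFRA+ than in GAL1+ libraries by 1.42 on the log2 scale (−1.42, SE 0.36, adjusted p = 0.0136), *Abca1* by 1.36 (−1.36, SE 0.21, adjusted p = 0.00199) and *Abcg1* by 1.0 (−1.0, SE 0.28, adjusted p = 0.0210). *Abcg1* did not pass without the block (adjusted p = 0.0501), and *Nr1h3* and *Abcg1* did not pass without T3 (adjusted p = 0.116 and 0.188) or when some single PDGFRA+ or GAL1+ libraries were left out. Without T3, 21 of the 33 genes were called, all among the 28, and *Acaca*, *Nsdhl*, *Scap*, *Scd2* and *Tm7sf2* were lost besides these 2. Without T4, *Nr1h3* (adjusted p = 0.0613), *Scap* and *Tm7sf2* were lost, and *Srebf1* (log2 fold change 0.56, adjusted p = 0.0499) and *Scd1* passed.

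**Figure D3:**
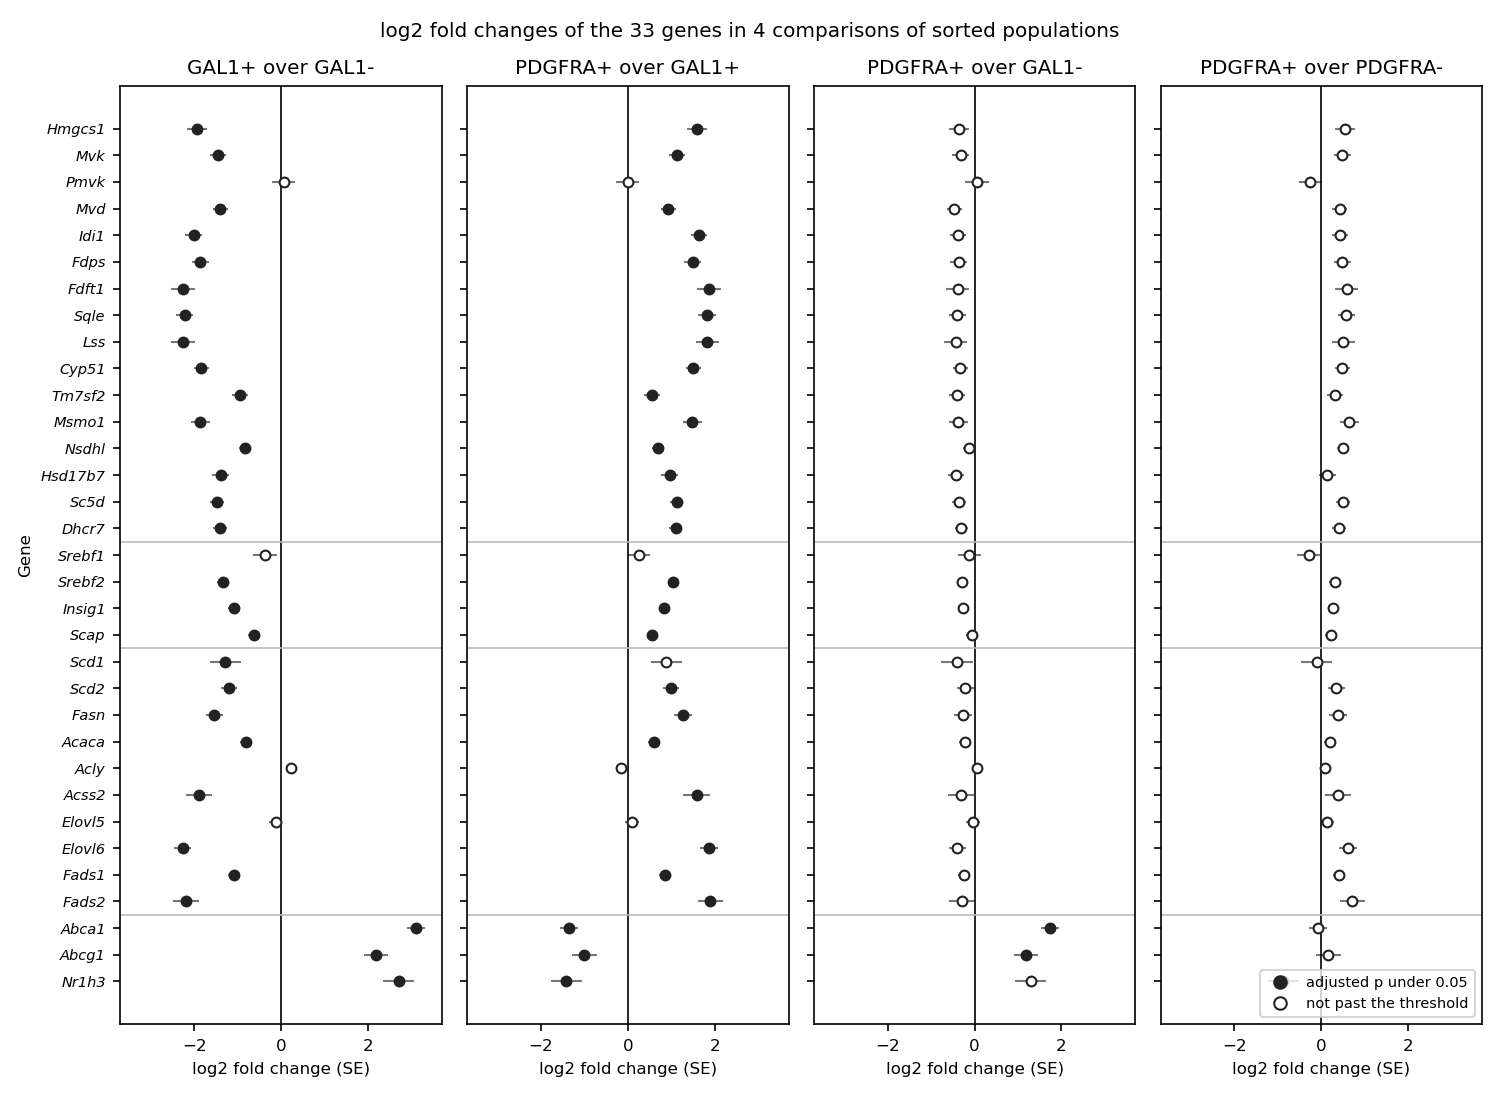
log2 fold change (x axis, bars SE) of each of the 33 genes (y axis, grouped by role) in 4 comparisons, with filled symbols for genes called at an adjusted p under 0.05. Of the 26 synthesis genes, 24 lie left of 0 in GAL1+ over GAL1- and right of 0 in PDGFRA+ over GAL1+, *Acly* and *Pmvk* being the others, while in PDGFRA+ over PDGFRA- no gene is called although 21 were higher in 3 of 3 tumors.

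PDGFRA+ and GAL1- cells, whose libraries both had high progenitor sums, were close in the synthesis genes. These populations came from separate sorts, so they can hold the same kinds of cell. Of the 33 genes, 2 were called higher in PDGFRA+ libraries, *Abca1* and *Abcg1*, where 8.26% of all genes were called higher, and none was called lower by limma, where 0.011% of all genes were. At an unadjusted p under 0.05, 3 of the 33 genes were higher (15.5% of all genes) and 2, *Mvd* and *Sc5d*, lower (1.85% of all genes). *Abca1* was higher by 1.75 (SE 0.21, adjusted p = 0.00199) and *Abcg1* by 1.18 (SE 0.28, adjusted p = 0.0286; 0.0721 without the block). Without T3 neither passed, with adjusted p = 0.0805 for *Abca1* and 0.229 for *Abcg1*. *Nr1h3* differed by 1.29 (SE 0.36, adjusted p = 0.0583) and was higher in 3 of 3 tumors. The sterol genes had a median log2 fold change of −0.37, from −0.47 for *Mvd* to 0.06 for *Pmvk*, and 14 of 16 were lower in 3 of 3 tumors. Over the 33 genes, 24 were lower in 3 of 3 tumors, against 27.9% of all genes.

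The fit of these 2 populations alone, with the tumor block, called 15 of the 33 genes. It called 3 higher, where 13.1% of all genes were, and 12 lower in PDGFRA+ libraries, where 5.51% of all genes were: *Hmgcs1*, *Mvd*, *Idi1*, *Fdps*, *Fdft1*, *Sqle*, *Lss*, *Cyp51*, *Msmo1*, *Hsd17b7*, *Elovl6* and *Scd1*. The values were the same in both fits (*Lss* −0.43, *Fdft1* −0.39, *Elovl6* −0.39, *Msmo1* −0.37), and only the estimate of the spread differed. The pan-leukocyte genes were higher in PDGFRA+ than in GAL1- libraries by a median of 2.92 (all 12 called), while the progenitor genes differed by a median of −0.45 (0 of 8 called).

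The third comparison, PDGFRA+ with PDGFRA- cells, asks whether the PDGFRA sort separates the same genes. By limma, 0 of the 33 genes and 0% of all genes were called. At an unadjusted p under 0.05, 15 of the 33 genes were higher in PDGFRA+ libraries, 11 of them sterol genes, against 6.02% of all genes, and 1, *Nr1h3*, was lower, against 5.74%. These 16 genes became 0 without the tumor block, 3 without T5, 3 without either the PDGFRA+ or the PDGFRA- library of T5 alone, and 6 without the PDGFRA+ library of T4. In 3 of 3 tumors 21 of the 33 genes were higher, against 15.9% of all genes; these were 13 of 16 sterol genes, 6 of 10 fatty acid genes and 2 of 4 SREBP regulators. The median log2 fold change was 0.48 over the sterol genes and 0.36 over the fatty acid genes. The sterol median by tumor was 0.23, 0.36 and 0.80 for T3, T4 and T5. The pan-leukocyte genes had medians of −0.89, 1.17 and −1.14 in the same tumors, with 0 of 12 called, and mouse *Egfr* differed by 0.32, 0.09 and 1.77 (log2 fold change 0.73, adjusted p = 0.423). T5 is the tumor whose PDGFRA- library stood near the GAL1+ libraries, and the part of cell composition in these differences was not tested.

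The largest values in this comparison were those of *Fads2* (0.71, SE 0.29, adjusted p = 0.396), *Msmo1* (0.64, SE 0.21, adjusted p = 0.315) and *Elovl6* (0.62, SE 0.20, adjusted p = 0.306), each higher in 3 of 3 tumors. *Fdft1* was the one gene of the 33 whose PDGFRA+ libraries all lay above the PDGFRA- libraries (0.58, SE 0.27, adjusted p = 0.432), as did 3.51% of all genes. *Nsdhl* had the smallest adjusted p, 0.254, at 0.50 (SE 0.13). *Nr1h3* had −0.88 (SE 0.36, adjusted p = 0.392), with −0.48, −0.42 and −1.73 in T3, T4 and T5, and its PDGFRA+ libraries lay below the PDGFRA- libraries, as did 3.43% of all genes. *Abca1* (−0.07) and *Abcg1* (0.17) differed in sign between tumors. Mature oligodendrocyte genes, which also use sterols for myelin, had a median of −1.86 in this comparison, and cycling genes one of 0.67, with 0 called in either list.

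*Srebf1* and *Scd1* set T4 apart. *Srebf1* was 7.98 in the PDGFRA- and 6.69 in the PDGFRA+ library of T4, a difference of −1.29, against 0.24 in T3 and 0.16 in T5. *Scd1* was 8.54 and 7.17 in the same libraries, a difference of −1.37, against 0.10 in T3 and 0.95 in T5. *Scd2*, its paralog, was 10.25 and 10.16 there, a difference of −0.09. The mature oligodendrocyte genes summed to 1154 CPM in the PDGFRA- library of T4, the highest of the 12 libraries, and to 1006 CPM in that of T5, where *Srebf1* and *Scd1* were at 6.55 and 6.28.

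The levels by library are set beside the marker lists of the sorted cells. The median sterol level, relative to each gene's mean over the libraries, was 0.94, 0.63 and 0.55 in GAL1-, 0.69, 0.28 and 0.13 in PDGFRA+, 0.42, −0.05 and −0.66 in PDGFRA-, and −0.35, −1.29 and −1.30 in GAL1+ libraries. For the LXR and efflux genes the median was −2.0, −1.44 and −1.18 in GAL1-, −0.28, 0.22 and 0.21 in PDGFRA+, −0.20, −0.19 and 0.96 in PDGFRA-, and 1.23, 1.27 and 1.21 in GAL1+ libraries. The 3 GAL1+ libraries and the PDGFRA- library of T5 were the lowest for sterol genes and the highest for LXR and efflux genes, and they were also the 4 with the most pan-leukocyte and the least progenitor RNA. Among the other 8 libraries, the sterol and pan-leukocyte orders differed in places. The PDGFRA- library of T4 had 774 CPM of pan-leukocyte genes and a sterol median of −0.05. The PDGFRA+ libraries of T4 and T5 had higher sterol medians of 0.28 and 0.13, with 1696 and 1709 CPM. Their progenitor sums, 1827 and 1841 CPM, were also above the 1793 CPM of that PDGFRA- library. The GAL1- libraries had the lowest pan-leukocyte sums, 88.5 to 237 CPM, and the lowest LXR and efflux medians. The part of cell composition in these levels was not tested.

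**Figure D4:**
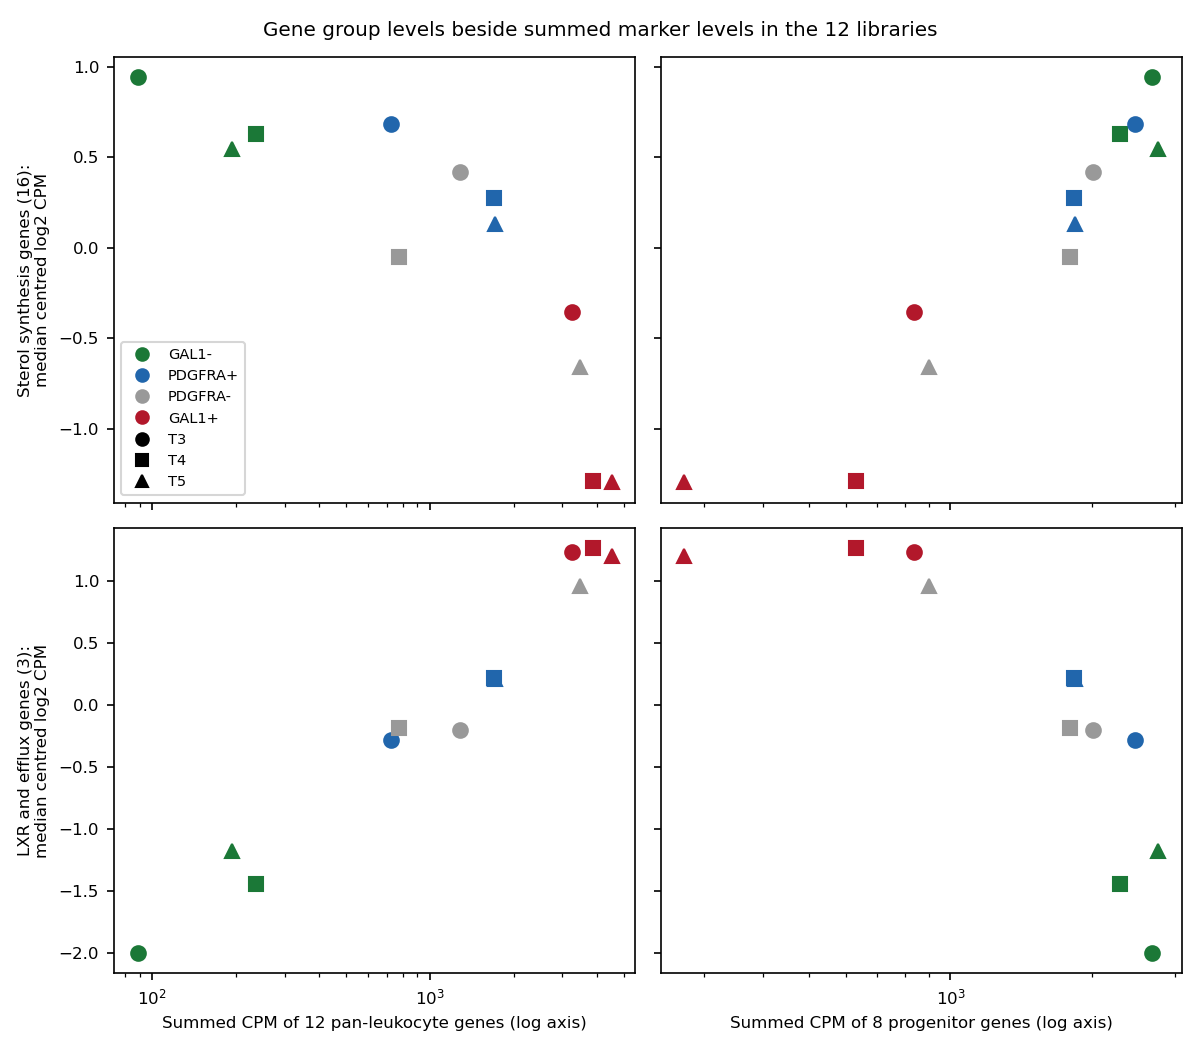
Median centred log2 CPM of the sterol synthesis genes (top) and the LXR and efflux genes (bottom) in each of the 12 libraries, against the summed CPM of 12 pan-leukocyte genes (left) and 8 oligodendrocyte progenitor genes (right), both on log axes. Colors give the sorted population and symbols the tumor; the GAL1+ libraries and the PDGFRA- library of T5 form the end with pan-leukocyte sums of at least 3254 CPM and progenitor sums up to 901 CPM.

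Other genes of the same pathways, from lists chosen with earlier results known, are given against the 28.9% of all genes called higher and 29.3% called lower in GAL1+ over GAL1- libraries. Of 13 other genes of sterol synthesis and SREBP processing, 6 were called lower and 2 higher. *Acat2*, which forms acetoacetyl-CoA for the mevalonate pathway, had −1.95 (SE 0.23, adjusted p = 0.000115) and *Stard4*, a sterol carrier, −1.19, both close to the sterol genes above. *Ebp*, the sterol isomerase, went the other way at 1.02 (adjusted p = 0.000299), and it was named after its value was seen. Of 24 other genes of fatty acid synthesis and activation, 8 were called higher and 10 lower, near the shares over all genes. *Hacd4*, a hydroxyacyl-CoA dehydratase, was highest at 4.05, and *Acsl6* and *Elovl4*, which activate and elongate long-chain fatty acids, were lowest at −2.78 and −2.52. *Hacd4* was low in the GAL1- libraries of T3, T4 and T5, at a log2 CPM of −0.67, −1.06 and −2.17. The 3-read floor of these libraries was between −2.99 and −2.77. Of 18 other genes of LXR signaling, sterol transport and oxidation, 13 were called higher and 2 lower. *Ch25h*, which makes 25-hydroxycholesterol, had 4.19, *Mylip*, a known LXR target, 3.71, and *Npc2*, the lysosomal cholesterol carrier, 3.12. *Ch25h* was also low in the GAL1- libraries of T3, T4 and T5, at −2.10, −0.82 and −0.98. In the PDGFRA- library of T5, *Ch25h*, *Mylip* and *Npc2* were at 3.23, 6.55 and 8.80, within or above the range of the GAL1+ libraries. The part of macrophage and other leukocyte RNA in these lists was not tested. Of 15 fatty acid oxidation genes, 2 were called higher and 3 lower, with *Ppargc1a* at −2.27, *Cpt1c* at −2.01 and *Ppard* at 0.84. The oxidation genes had a median of 0.14, and the 26 synthesis genes among the 33 one of −1.46. In PDGFRA+ over GAL1+ libraries the same 4 lists had 4 higher and 0 lower, 10 and 7, 2 and 13, and 3 and 2 genes called, in the order given here. In PDGFRA+ over GAL1- libraries they had 1, 1, 8 and 0 genes called higher and 0 lower, and in PDGFRA+ over PDGFRA- libraries 0 were called by limma, with 5 higher and 3 lower of 70 genes at an unadjusted p under 0.05, near the shares over all genes.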

How the data were processed

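EGFR+ cells of 3 mouse GBMs were sorted into 4 populations and sequenced from total RNA. The authors used fastp for trimming, STAR in two-pass mode for alignment to mm39 and featureCounts for exon reads, with multimapping reads as fractions, kept genes above 1 CPM in at least 3 samples, normalized by TMM and applied voom. The deposited values are log2 CPM of 18180 genes. Here limma 3.58.1 in R 4.3.3 fitted every gene over all 12 libraries, with terms for population and tumor (mean-variance trend, two-sided, 6 residual and 3.49 prior degrees of freedom), and p-values were Benjamini-Hochberg adjusted. Libraries of the same tumor deviated together from their population means (mean correlation 0.486 over 18 pairs, lowest 0.140), so the tumor block pairs them. Reads were recovered from voom's offset of 0.5, each library's lowest value standing for no read. Only 41.3% to 59.2% of recovered values were within 0.01 of a whole read, so no count model was used. The fit was tested on simulated data. Values in every library were given for the SREBP regulators, the LXR and efflux genes, and, in 3 comparisons, the 3 largest changes each way with 1 sign in all tumors. Of each further list the 3 largest called changes were named, apart from an item that is not reported here. The members and lists were chosen with earlier results of these data known. Tables and figures used Python 3.11.15, pandas 2.3.3 and matplotlib 3.10.9.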

Additional observations from a re-analysis of the deposited data

How the results depend on the processing

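Besides leaving out each tumor or library, the fit was repeated with no tumor block, with the 2 compared populations only, without the trend, with voom weights, with log2(CPM + 1), with a stricter low-value filter, after quantile normalization or median centring, and with a fold change above 1.5 required. For GAL1+ over GAL1- cells, 28 to 30 of the 33 genes (8071 to 11087 of all genes) were called with libraries left out, and 29 without the replicate block, which changed no member's call there. For PDGFRA+ over GAL1+ cells, 28 genes became 21 with no block (3154 of all genes), and ranged from 21 to 29 (2110 to 7887 of all genes) with libraries left out, the lowest without T3. For PDGFRA+ over GAL1- cells, 2 genes became 1 with no block, with no trend or after centring, 15 in the fit of the 2 populations, and 0 to 3 with libraries left out. Of all genes, 1504 were called there, 612 with no block, 3386 in the fit of the 2 populations, and 0 to 1920 with libraries left out, 0 being the count without T3. For PDGFRA+ over PDGFRA- cells, 0 of the 33 genes were called under every alternative, and 0 to 5 of all genes with libraries left out.

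Some differences that missed the threshold changed sign with libraries left out. In PDGFRA+ over PDGFRA- cells, *Srebf1* ran from −0.56 to 0.20 (0.20 without T4, 0.02 and 0.05 without its PDGFRA+ or PDGFRA- library), *Abca1* from −0.32 to 0.14 and *Abcg1* from −0.31 to 0.53. *Abca1* was also 0.16 after quantile normalization. In PDGFRA+ over GAL1- cells, *Srebf1* ran from −0.29 to 0.19, *Scap* from −0.14 to 0.042 and *Fads2* from −0.53 to 0.029. The cause was not tested. With 3 tumors, the spread between tumors set the precision.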

Other observations

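The PDGFRA- library of T4, where *Srebf1* and *Scd1* were highest, also held the highest levels of 4 further genes, named after their values were seen. *Lgi4*, a secreted protein of myelinating glia, was at a log2 CPM of 8.83 there, against 7.69 and 6.59 in the GAL1+ and GAL1- libraries of T4 and at most 5.03 in the remaining libraries. *Itgb4*, an integrin subunit, was at 7.47 there and at 6.27 and 5.43 in the GAL1+ and GAL1- libraries of T4. *Foxd3*, a neural crest transcription factor, was at 5.11, 3.89 and 3.16 in the same order, and *Art3* at 6.74, 5.71 and 4.51. In the PDGFRA- library of T3, *Itgb4* was at 1.37, *Art3* at 1.43 and *Foxd3* at the floor of 3 reads. In the PDGFRA- library of T5 these 3 genes were higher, at 2.83, 2.27 and 1.96. The PDGFRA+ library of T4 had them at 4.00, 3.04 and 1.93. *Mlxipl*, which encodes the glucose-sensing lipogenic factor ChREBP and is not among the 33 genes, was at 4.13, 5.07 and 5.0 in GAL1+ and at −2.89, 0.49 and 0.35 in GAL1- libraries (the lowest of these near the 3-read floor of −2.99), a direction opposite to that of *Fasn* and *Elovl6*.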
